A study of Mus musculus with 7 samples.

Results

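The cells described here are those of the second of 3 single-cell libraries from mammary tumours of mice carrying the polyoma middle T transgene (PyMT), a widely used mouse model of breast cancer. The label of all 3 libraries gives bulk tumour cells positive for E-cadherin (Ecad), collected by fluorescence-activated sorting of dissociated tumours. The members are all wells of library 2 in which the transcripts of all genes, with the added spike-in RNA left out, came to at least 500. That left 65 of its 96 wells, out of 381 wells that reached the same minimum in all 7 libraries of the study. Library 1, with the same label, is used as a reference, and 95 of its 96 wells were used. In library 3 only 1 well reached the minimum, so it is not used for comparison. The promoter of the transgene, the strain and age of the mice and the number of mice or tumours behind each library are not given in the sources used here. Nothing in the labels ties a library to a separate animal. A comparison of library 2 with library 1 is therefore a comparison of 2 libraries and of no treatment or genotype.

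E-cadherin, encoded by Cdh1, is the protein that joins epithelial cells to each other, and sorting on it is meant to collect the epithelial cancer cells. Tumours of this model consist mainly of luminal epithelial cells that still express milk protein genes. They also hold macrophages, which take up debris and in part present antigen on MHC class II, fibroblasts, which lay down collagens and decorin, and endothelial cells of blood vessels. Contractile cells with smooth muscle actin (Acta2) include the myoepithelial cells around mammary ducts, the muscle cells and pericytes of vessels, and activated fibroblasts.

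The 65 used wells of library 2 held 69976 transcripts, from 508 to 3083 per well with a median of 883, and a median of 513 genes per well. Library 1 was deeper, with 438102 transcripts in its used wells and a median of 3083 per well, of which 1 well alone gave 14.9%. The 3 wells just below the minimum held 358, 439 and 482 transcripts, and the 3 just above it 508, 509 and 510. A level is given here as transcripts per 10000 of the same wells, and intervals are exact 95% intervals that cover counting error only. A transcript is an estimate from molecular barcodes, so sums need not be whole numbers. All 96 well numbers occur in both libraries. Wells with the same number were no more alike across the libraries (median correlation of their profiles 0.266) than wells with different numbers (0.265).

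Most wells of the library labelled Ecad positive did not carry an epithelial profile. A well was placed in a class when it held at least 4 transcripts of at least 3 different genes of that class's marker list, and where it met several classes, in the one with the most marker transcripts. This rule was chosen after the data had been seen. It placed 17 wells (26.2%, interval 16 to 38.5) as macrophage-like, 17 as contractile (the same share), 9 (13.8%, 6.53 to 24.7) as stromal-like and 14 (21.5%, 12.3 to 33.5) as epithelial-like. A further 4 wells (6.15%, 1.70 to 15) were endothelial-like, 2 were leukocytes outside the macrophage class and 2 met no class. In library 1, the same rule made 94 of 95 wells epithelial-like and 1 macrophage-like. It placed none of them in the other classes, and the exact interval of 0 of 95 reaches 3.81%. Before the choice among classes, 21 of the 95 met a class other than the epithelial one, most often macrophage-like (14), contractile (8) or stromal-like (4), against 51 of 65 in library 2. Wells of library 1 were deeper, and with every well drawn down to 500 transcripts 49 of them were epithelial-like, 1 macrophage-like and 45 in no class, with 0 in the other classes. The same draw in library 2 left 16 macrophage-like, 17 contractile, 7 stromal-like, 11 epithelial-like, 4 endothelial-like and 3 other leukocyte wells, and 7 in no class.

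**Figure D1:**
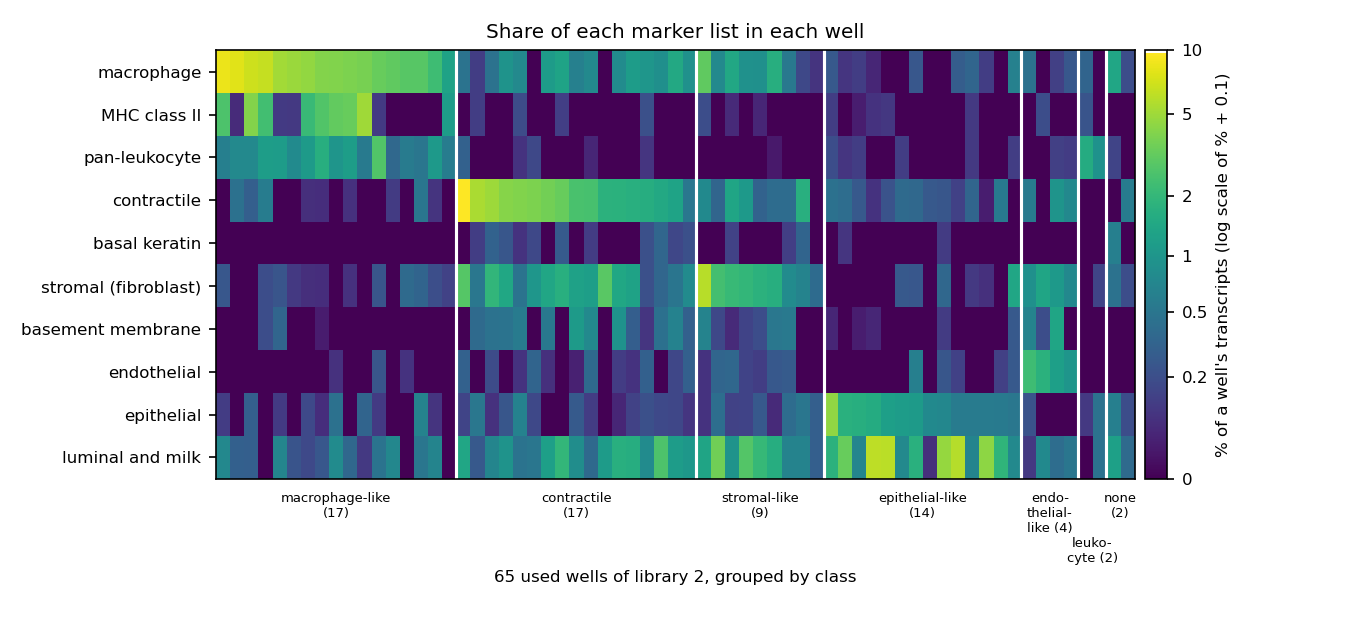
Share of each well's transcripts that came from 10 marker lists (colour, log scale of percent plus 0.1), for the 65 used wells of library 2 in columns, grouped by class with the number of wells in brackets. The macrophage list peaks in the 17 macrophage-like wells and the contractile list in the 17 contractile wells, while stromal genes run across the contractile, stromal-like and endothelial-like wells.

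The classes differed in how clear they were. Every macrophage-like well stood above the rule's minimum, with 9 to 104 transcripts (median 42) of 6 to 15 macrophage genes. Contractile wells held 5 to 106 transcripts of their list (median 35), and 1 well sat at the minimum. Of the 9 stromal-like wells 3 sat at the minimum, and so did 5 of the 14 epithelial-like wells, in which the epithelial list gave 4 to 70 transcripts (median 9). Without choosing among classes, 34 of the 65 wells met 2 or more, against 21 of 95 in library 1. The commonest pairs were macrophage with leukocyte markers, in 15 wells, and contractile with stromal markers, in 14 wells. Each well was meant to hold 1 sorted cell. Whether some held more was not tested, and no doublet caller was run.

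Summed over the library, macrophage genes took 1.53% of the transcripts of library 2 against 0.0816% of library 1, a ratio of 18.7 (interval 16.6 to 21.2). The ratio was 22 (18.4 to 26.5) for stromal genes, 20.5 (16.2 to 26.2) for MHC class II genes, 16 (14 to 18.5) for contractile genes and 8.55 (6.37 to 11.5) for endothelial genes. Epithelial genes went the other way, at 0.484% against 1.19% (ratio 0.408, 0.364 to 0.455), and so did luminal and milk genes, at 1.46% against 3.30% (ratio 0.443, 0.415 to 0.472). Proliferation genes (0.139% against 0.111%) and immediate early genes (0.188% against 0.155%) had intervals of the ratio that included 1. The 31 wells under the minimum held similar shares of macrophage (1.32%), contractile (0.918%) and epithelial genes (0.546%) to those of the used wells, and less of the MHC class II genes (0.0883% against 0.426%). With Apoe taken off the macrophage list the log2 ratio was 3.62 in place of 4.23. No other list was recomputed without a leading gene. Sparc gave 335 of the 542 stromal transcripts of library 2 and 34.2 of the 154 of library 1. Sparcl1 gave 66.5 of the 112 endothelial transcripts of library 2 and 69.6 of the 81.6 of library 1. Of the Sparcl1 transcripts of library 2, 26 lay in contractile, 22 in stromal-like, 10 in epithelial-like and 5 in endothelial-like wells.

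**Figure D2:**
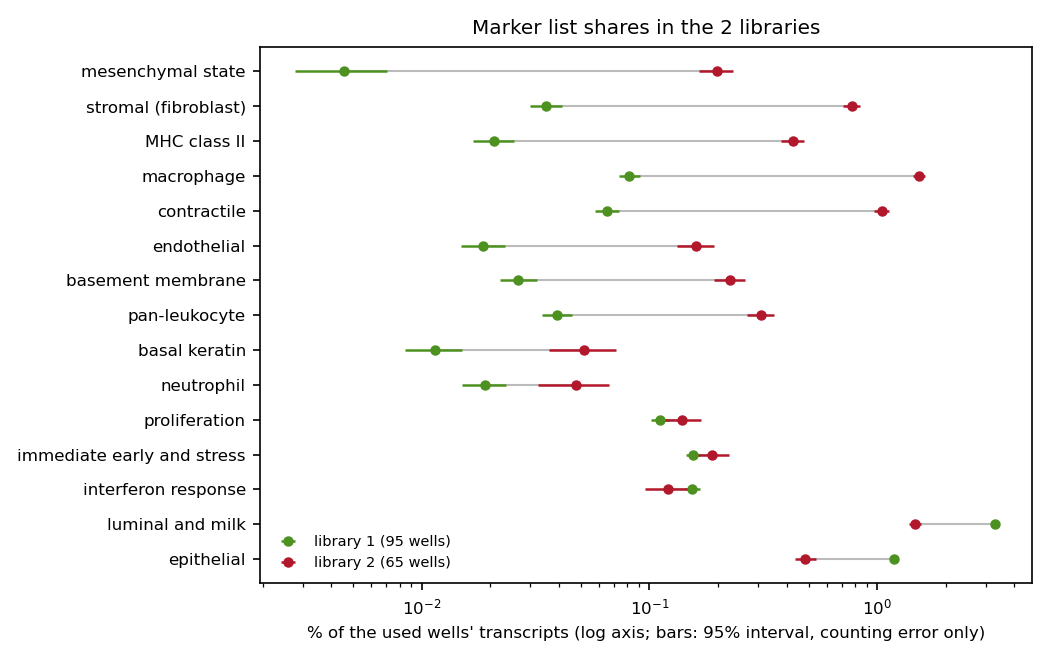
Share of all transcripts of the used wells that came from each of 15 marker lists, in library 1 (green) and library 2 (red), on a log axis with exact 95% binomial intervals for counting error only. The epithelial and the luminal and milk lists lie to the left in library 2 (0.484% and 1.46%), and the macrophage, stromal and contractile lists lie to the right.

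Gene by gene, a fold of more than 4 between the libraries was taken as a difference, among genes with at least 20 transcripts over both. There is no replicate check on it. Of 4689 genes, 136 (2.90%) were higher and 324 (6.91%) lower in library 2, in all 9.81%, and the median log2 ratio of all genes was -0.26. The balance turned when the deeper wells of library 1 were thinned to at most 882 transcripts, with 96 genes higher and 66 lower. Among 12 macrophage genes with enough transcripts, 10 were higher and 1 lower (Cd14), with a median log2 ratio of 4.15. All 7 stromal genes, 7 of 8 contractile genes, all 4 MHC class II genes and all 3 mesenchymal genes (Vim, S100a4 and Tgfbi) were higher. Of 20 epithelial genes none was higher and 5 were lower (Krt19, Krt7, Cldn3, Esrp1 and Cd24a). Of 13 luminal and milk genes none was higher and 7 were lower. Among those 7 were Lalba, the gene of the milk protein alpha-lactalbumin, and the luminal transcription factor genes Gata3 and Elf5. These lists were also used to place wells, so their counts and the class counts are not separate evidence.

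Contractile genes were among those with the largest ratios. Acta2 had 83.1 transcripts in 23 wells of library 2 and 3.01 in library 1, a 173-fold ratio (interval 57.3 to 857). Myh11, the smooth muscle myosin heavy chain, had 38.4 transcripts in library 2 and 0 in library 1, at least 80.04-fold higher against a floor of 3 transcripts. Tagln (transgelin) was 107-fold and Tyrobp, a signalling adaptor of myeloid cells, 65.6-fold higher. Sparc, a secreted collagen-binding protein, was 61.2-fold higher (335 against 34.2 transcripts), Apoe, a lipid carrier, 45.7-fold (507 against 69.5), Cd74, the MHC class II invariant chain, 47.2-fold (60.8 against 8.06) and the intermediate filament gene Vim 37.7-fold (60.4 against 10.03). Among the genes lower in library 2 were the milk iron-binding protein gene Ltf (1.0 against 362 transcripts), the ion transporter gene Slc12a2 (2.0 against 467) and the glutathione peroxidase gene Gpx3 (2.0 against 687). The largest well of library 1 gave 60.5% of its Slc12a2 and 85.2% of its Gpx3 transcripts, and both genes stayed lower without that well.

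Cdh1, the gene of the sorted protein, was not past 4-fold. Its level was 8.23 per 10000 in library 2 and 11 in library 1. It was found in 20 of 65 wells (30.8%) against 81 of 95 (85.3%). At an equal depth of 500 transcripts per well the expected shares were 22.1% and 39%. Within library 2 the epithelial-like wells held 37.5 of its 57.6 transcripts, in 10 of 14 wells. It was found in 5 of 17 contractile, 3 of 17 macrophage-like and 1 of 9 stromal-like wells. At equal depth the shares were 51.3% of epithelial-like, 16.9% of contractile, 14.2% of macrophage-like and 9.96% of stromal-like wells. Transcript counts do not measure the protein on the cell surface, and the sort gates are not given in the sources used here.

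**Figure D3:**
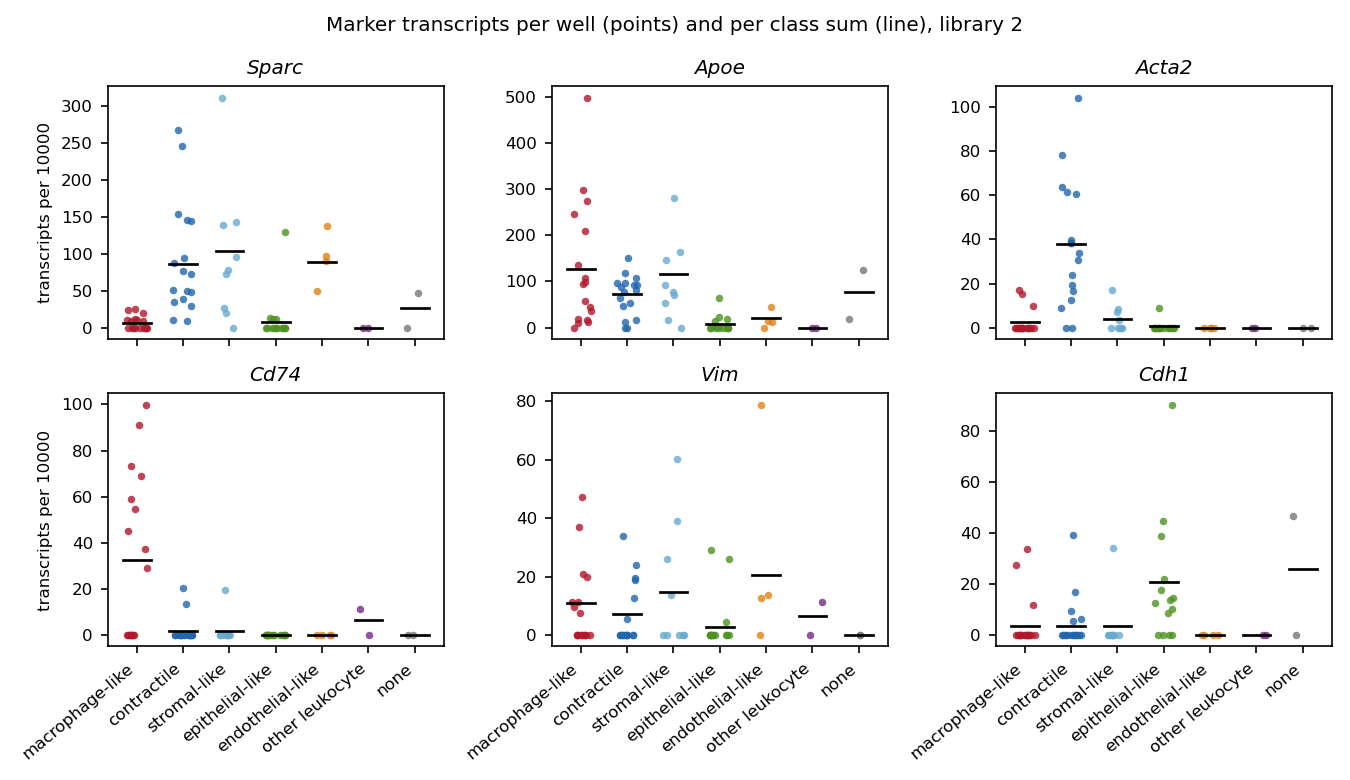
Transcripts per 10000 of Sparc, Apoe, Acta2, Cd74, Vim and Cdh1 in each used well of library 2 (points) by class, with the level of the summed class as a black line. Acta2 is high in contractile wells and Cd74 in macrophage-like wells, Sparc is shared by contractile, stromal-like and endothelial-like wells, and Apoe by macrophage-like, contractile and stromal-like wells.

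In the macrophage-like wells Tyrobp was found in all 17 (from 1 to 23 transcripts, median 3) and in 0 of 14 epithelial-like wells, and 82 of its transcripts lay in the class against 3 in all other wells. The cathepsin gene Ctss was found in 16 of 17, and the growth factor receptor gene Csf1r, on which macrophages depend, in 11 of 17, with 36 transcripts against 1 elsewhere. Tyrobp, Ctss and Csf1r are on the list that placed the wells, so their concentration there partly follows from the rule. Cybb, a subunit of the oxidase that phagocytes use, is on no list and had 22 transcripts in 10 of these wells and 1 elsewhere. Ly6c2, also on no list, had 17 transcripts in 5 of these wells and 1 elsewhere. The class is named after its list, and whether all 17 wells held macrophages or some held other myeloid cells was not tested. Leukocyte genes took 1.05% of the transcripts of the 17 wells. Krt8, a luminal keratin, was found in 0 of 17 and basal keratins in none, but Krt18, another luminal keratin, was found in 5 of 17. Genes of the epithelial list were found in 10 of the 17 wells, at 0.133% of transcripts, and luminal and milk genes took 0.375%. In library 1, Tyrobp was found in 3 of 95 wells.

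MHC class II genes divided these 17 wells. In 9 wells (numbers 6, 9, 38, 52, 67, 70, 79, 83 and 86) they gave from 8 to 65 transcripts, and in the other 8 wells at most 1. No well lay between. Cd74 is itself on this list, so it had to follow much the same line. It had 2 to 9 transcripts in each of the 9 wells and none in the other 8. Other genes differed between these wells and were picked out after their values were seen. C1qa, a subunit of the complement starter C1q, had 55 transcripts in the 9 wells and 7 in the 8, that is 59.3 (interval 44.6 to 77.1) and 9.54 (3.84 to 19.7) per 10000. Tgfbi, a matrix protein gene, had 35 against 4. Lyz2, the myeloid lysozyme, went the other way, with 7 against 55 transcripts, or 7.54 (3.03 to 15.5) and 75.0 (56.5 to 97.6) per 10000. Chi3l3, a chitinase-like protein gene of myeloid cells, had 0 against 26 transcripts, of which 17 came from well 53 and 6 from well 94. Tyrobp was at 45.2 and 53.2 per 10000, with intervals that overlapped. Lyz2 has a near-identical copy, Lyz1, and reads may have been split between them.

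**Figure D4:**
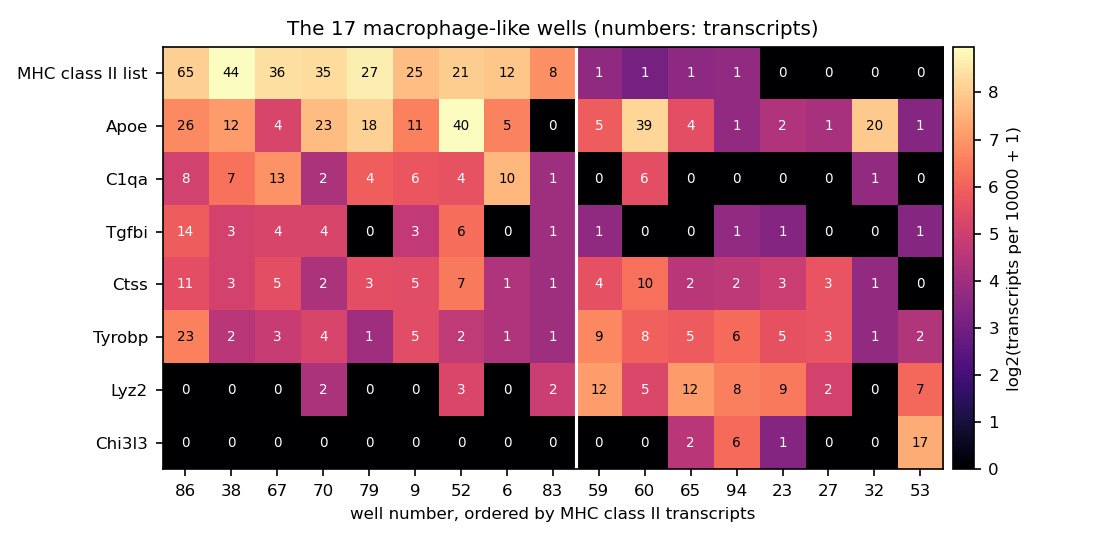
Transcripts of the MHC class II list and of 7 genes in the 17 macrophage-like wells (printed numbers), coloured by log2 of transcripts per 10000 plus 1, with wells ordered by MHC class II transcripts. The 9 wells left of the white line carry MHC class II and most C1qa transcripts, and the 8 wells to the right carry most Lyz2 and all Chi3l3 transcripts.

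Apoe did not mark macrophages alone. It stood at 128 per 10000 in macrophage-like wells, 115 in stromal-like and 73.7 in contractile wells, and at 7.41 in epithelial-like wells. Of the 35 wells with at least 4 Apoe transcripts, 12 were macrophage-like and 20 contractile or stromal-like. The other macrophage genes, which the class rule used, did not overlap between these groups. They gave from 5 to 73 transcripts (median 28) in macrophage-like wells and at most 3 in any of the 26 contractile and stromal-like wells, 15 of which had none. In sum the 26 wells held 265 Apoe transcripts with 20 of the other macrophage genes, and the 17 macrophage-like wells 212 with 526. Leaving Apoe off the list moved no well to another class.

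**Figure D5:**
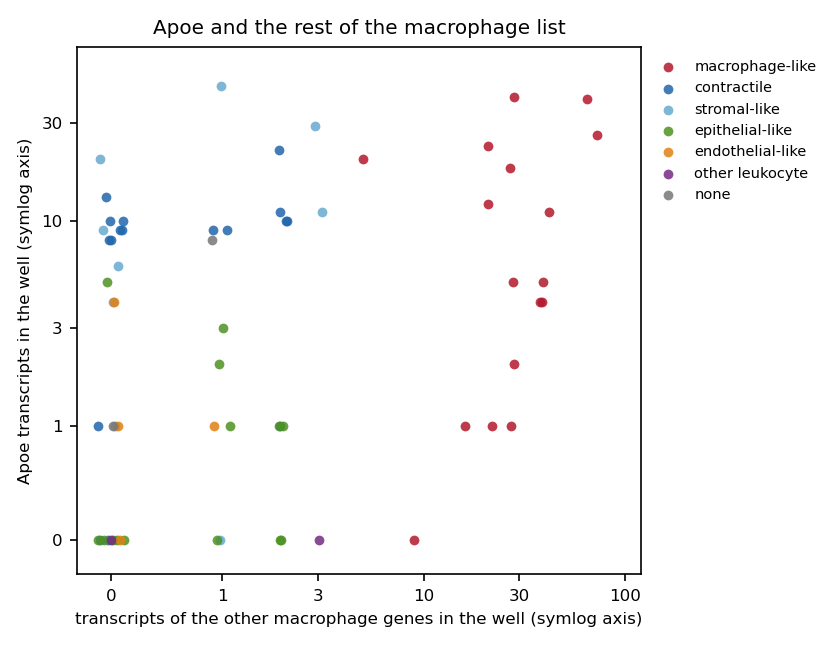
Apoe transcripts against transcripts of all other macrophage-list genes in each used well of library 2 (both axes linear up to 1 and logarithmic above), coloured by class. Contractile and stromal-like wells with many Apoe transcripts lie at 0 to 3 transcripts of the other macrophage genes, and macrophage-like wells lie at 5 to 73.

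The 17 contractile wells held 74 of the 83 Acta2 transcripts of the library, in 15 of the wells (from 0 to 13 per well, median 3). Acta2 stood at 38.4 per 10000 there, at 3.71 in stromal-like, 2.41 in macrophage-like and 0.568 in epithelial-like wells. Tagln, Mylk (myosin light chain kinase), Myl9 (a myosin light chain), Tpm1 and Tpm2 (tropomyosins that lie along actin) were each found in 14 or 15 of the 17. Myh11 was found in 13 of them and in 1 stromal-like and 1 epithelial-like well. All of these genes, Acta2 included, are on the list that placed the wells, so their concentration there partly follows from the rule. Well 34 held the most contractile transcripts, 106 of 9 genes among 2142, and well 66 the largest share, 62 of 637 (9.73%). Matrix genes were high in the same wells. Sparc was found in all 17, at 87.7 per 10000. The basement membrane genes Col4a1 and Lamb1 were at 17.8 and 18.3, against 7.45 and 8.37 in stromal-like, 27.6 and 13.8 in endothelial-like and 0.568 and 2.27 in epithelial-like wells. Igfbp5, a secreted binding protein of insulin-like growth factors, was also found in all 17, at 128 per 10000 against 46.5 in epithelial-like and 13.3 in macrophage-like wells. It was not particular to contractile wells. Among stromal-like wells, well 41 held 39 and well 29 held 25 Igfbp5 transcripts, and wells 50 and 75 held 0. Outside the list, the genes with the largest ratio to all other wells were Mir143hg, the host of a smooth muscle microRNA cluster (10 transcripts against 1), Col16a1 (17 against 2), Sh3pxd2a, Vwa1 and Osr1.

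Markers of particular contractile cell types were sparse. Genes of the basal keratin list, which myoepithelial cells carry, gave 25.1 transcripts in 11 of the 17 contractile wells, 7 of them in well 34. Krt14 (7), Krt5 (6) and Krt17 (5) led. The list also holds Trp63, Oxtr and Cdh3, which are not keratins and gave 1, 2 and 4 transcripts in contractile wells. The same list gave 5.01 transcripts in 3 of 9 stromal-like wells, 2.0 in 2 of 14 epithelial-like wells and 0 in macrophage-like wells. Pericyte genes gave 2.0 transcripts in contractile wells, from 2 wells. Contractile wells also carried milk and luminal genes, at 1.13% of transcripts, and stromal-like wells at 1.62%, against 3.08% in epithelial-like, 0.413% in endothelial-like and 0.375% in macrophage-like wells. Trf, the iron carrier transferrin, was found in all 9 stromal-like wells (2 to 15 transcripts, median 5), and Csn3, a milk casein, in 6 of them and in 13 of 17 contractile wells. Epithelial list genes took only 0.177% of contractile and 0.223% of stromal-like transcripts. The part that RNA from other cells of the suspension may have in these milk transcripts was not tested.

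Stromal-like wells shared much with the contractile ones, and the line between the 2 classes is a matter of degree. Sparc gave 113 transcripts in 8 of the 9 wells, at 104 per 10000. Dcn (decorin, which binds collagen fibrils) had 35 transcripts in 8 of 9 wells against 11 in all other wells, and 32 per 10000 against 4.69 in contractile wells. The collagen gene Col1a2 had 12 transcripts in 4 of the wells and 3 elsewhere. Mgp, an inhibitor of calcification, had 27, from 2 wells only. These genes are on the list that placed the wells, and some other members were no higher here than in contractile wells. Bgn was at 4.64 per 10000 against 5.21 in contractile wells, Mmp2 at 1.85 against 4.68, Fstl1 at 2.78 against 4.68 and Serpinf1 at 2.78 against 3.65. Col5a2 (4.65 against 1.04) and Fn1 (1.86 against 0) went the other way. Col3a1 had 5 transcripts in stromal-like well 45, and 4 in each of the contractile wells 58 and 68. Postn had 2 transcripts in each of the stromal-like wells 10 and 45, and 4 in contractile well 22. Genes off the list that led the class were Spp1 (osteopontin, 11 against 1), Ttc3, Aebp1 and Gsn. Acta2 was found in 4 of 9 wells with at most 1 transcript each, but Tagln gave 24 transcripts, in 5 wells. The wells with the most stromal transcripts were 45, with 61 of 8 genes, and 29, with 46 of 6 genes. Well 45 also met the macrophage-like and contractile classes, and well 29 the contractile class. Wells 21, 50 and 75 rested on 4 to 6 transcripts of 3 genes each, and well 50 held 10 contractile transcripts, of 2 genes.

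Vim, often used to call a mesenchymal state, was spread over non-epithelial classes. It was found in 8 of 17 macrophage-like, 6 of 17 contractile, 4 of 9 stromal-like and 3 of 4 endothelial-like wells, and in 3 of 14 epithelial-like wells. Its levels were 10.9, 7.29, 14.9, 20.7 and 2.84 per 10000 in that order. The other mesenchymal genes past 4-fold lay mostly in macrophage-like wells, namely all 39.6 transcripts of Tgfbi and 23 of the 30 transcripts of S100a4. Zeb1, Zeb2, Snai2 and Twist2, transcription factors of epithelial-to-mesenchymal transition, had at most 3.01 transcripts each in the library.

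The 4 endothelial-like wells (11, 80, 81 and 82) were small, with 508 to 885 transcripts, and each held 8 to 20 transcripts of the endothelial list. Igfbp7, a secreted protein of vessel walls that is on no list, gave 58 transcripts in all 4 wells (7 to 19 per well) at 198 per 10000, against 12.6 in contractile and 0.568 in epithelial-like wells. Ushbp1, also on no list, was found in all 4 wells and in no other used well, with 11 transcripts. Egfl7 and Plvap are on the list that placed the wells, so their place there partly follows from the rule. Egfl7, a secreted endothelial protein, gave 10 transcripts in all 4 wells and 2 elsewhere. Plvap, of endothelial pore diaphragms, was found in all 4 wells and in no other used well, with 7 transcripts. The listed genes Pecam1 and Kdr had 1 transcript each in the used wells of the library. Tyrobp, Acta2, Cd74 and Cdh1 were at 0 in all 4. At 2917 transcripts in all, the exact interval of a count of 0 reaches 12.6 per 10000.

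The 2 leukocyte wells outside the macrophage class differed from each other. Well 8 held 14 transcripts of 8 leukocyte genes, including Ptprc (CD45) and Rac2, with 3 macrophage-list transcripts. It held the library's 5 transcripts of Cd160 and 3 of Cd7, receptors of natural killer and T cells, and 1 transcript of the T and NK cell list. Well 56 sat at the minimum, with 6 transcripts of 3 leukocyte genes, and held both transcripts of the T cell kinase gene Lck. Neither was named further from so few counts. No transcript of the B cell list was counted in library 2, and T and NK cell genes 6.02, dendritic cell genes 11, adipocyte genes 1.0, erythroid genes 5.01, platelet genes 3.01, pericyte genes 16.1 and neutrophil genes 33.1.

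The 14 epithelial-like wells held 17654 transcripts. Epithelial genes, by which they were chosen, took 1.40% of these, a ratio to library 1 of 1.18 (interval 1.03 to 1.34), and luminal and milk genes 3.08%, a ratio of 0.933 (0.855 to 1.02). Several lists of other cell types were above library 1 in the same wells, at low shares. The ratio was 3.64 (2.57 to 5.05) for contractile, 3.38 (2.04 to 5.36) for stromal, 3.33 (1.60 to 6.27) for endothelial and 1.73 (1.11 to 2.60) for macrophage genes, at 0.239%, 0.120%, 0.0627% and 0.142% of transcripts. It was 6.2 (1.82 to 17) for mesenchymal genes, from 5.02 transcripts. A few members gave most of the contractile, stromal, endothelial and macrophage transcripts here. Tpm1 gave 16 and Cald1 17 of the 42.2 contractile transcripts, while Acta2 and Tagln were each found in 1 of 14 wells. Tpm1 and Cald1 were also found in 64 and 41 of 95 wells of library 1. Sparc gave 13.2 of 21.2 stromal, Sparcl1 10 of 11.1 endothelial and Apoe 13.1 of 25.1 macrophage transcripts. Csn3 stood at 87.5 per 10000 against 93.8 in library 1, Trf at 55 against 53.5, Epcam, an epithelial adhesion gene, at 11.4 against 11, and Cdh1 at 21.2 against 11. Krt18, a luminal keratin, was at 42.2 against 24.1, with 41 of its transcripts in well 93. Wells varied widely, since luminal and milk genes gave 189 transcripts in well 71, the largest of the library with 3083 transcripts, and 1 in well 76.

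Of 4258 genes compared between the epithelial-like wells and library 1, 95 (2.23%) were higher and 55 (1.29%) lower by more than 4-fold, together 3.52%. Among the epithelial list 0 of 20 was higher and 1 lower (Krt19), and among the luminal list 0 of 13 was higher and 2 lower (Ltf and Gata3). Several genes of these lists without a call were at 0 in these wells, such as Lalba (0 against 205 transcripts), Prlr (0 against 197) and Esrp1 (0 against 98.9). A 0 was set to 3 transcripts, and at that floor these genes could not be called lower, so the missing call does not show an equal level. Higher were Srek1, a splicing regulator (11 against 26.1 transcripts, 10.5-fold, interval 4.68 to 22), Sat1, of polyamine breakdown (48.6 against 178, 6.79-fold) and the transcription factor gene Sox4 (50.9 against 194, 6.5-fold). Lower were Slc12a2 (1.0 against 467 transcripts, 18.8-fold, interval 3.36 to 745), the secretoglobin gene Scgb2b27 (6.02 against 1046, 7.0-fold) and Gata3 (2.0 against 321, 6.46-fold). Without the largest well of library 1, Slc12a2 stayed lower in this comparison too, while Krt19, Gpx3 and Ly6a were no longer lower. Weighting wells equally gave 153 lower genes in place of 55, of which 33 were shared.

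Sparc and Apoe were also more than 4-fold higher in these wells than in library 1, with 13.2 and 13.1 transcripts. Apoe was no longer past 4-fold as a mean over wells or without the largest well of library 1, and Sparc stayed higher under both. Of these transcripts, 10 Sparc and 5 Apoe transcripts lay in well 88, which held 11 stromal and 4 epithelial transcripts, the latter of 4 different genes. Neither gene was past 4-fold in the 7 epithelial-like wells that met no other class and stood above the smallest marker counts.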

How the data were processed

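Single cells were profiled with CEL-seq, in which barcodes mark both the well and the single RNA molecule and only 3' ends are read. Per the submitters' processing notes, BWA 0.6.2-r126 and the genome build mm10 were used, while the counting tool is not given in the sources. The authors deposited estimated counts, 1 value for each gene and well, with no scaling across wells. In the tables used here each value is an estimate of molecules from a whole number of the 256 molecular barcodes that 4 bases allow.

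Wells with at least 500 transcripts without spike-ins were used. Marker lists (23) described the wells, and 6 of them placed wells in classes. The members, lists and thresholds were chosen with earlier results of these data known, and the class rule after the wells had been seen. With 1 library on each side no test over samples was possible, and no p-value was computed. Libraries 2 and 1 were compared by shares of summed transcripts, with a gene called past 4-fold among genes with at least 20 transcripts and zeros set to 3 transcripts. Named genes were the markers given with the cells and Cdh1, up to 6 leading members of each list, the 12 largest ratios in each direction found in at least 5 wells (ribosomal protein genes left out), and the 10 leading genes of each class. Shares of wells with a gene were also computed for an expected draw of 500 transcripts per well. Intervals are exact 95% binomial (Clopper-Pearson) or Poisson intervals. Alternatives varied the minimum, the class rule, the weighting of wells, large wells and the scaling, including TMM factors of edgeR 4.0.16 under R 4.3.3. Other steps used Python 3.11.15, pandas 2.3.3 and scipy 1.17.1, and scripts were tested on simulated data.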

Additional observations from a re-analysis of the deposited data

How the results depend on the processing

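Of 116 values recomputed under an alternative setting for 27 results, 85 stayed within 1.5 times the value in the report (for list ratios, within its interval), 31 moved and 0 reversed. With at least 1000 transcripts, 25 wells of library 2 were used, of which 7 were macrophage-like, 8 contractile, 5 stromal-like, 5 epithelial-like and 0 in the endothelial-like class, the leukocyte class or no class. With at least 300 transcripts, 6 wells met no class. With 1 transcript and 1 gene more in the class rule, 9 wells were epithelial-like, 1 was a leukocyte well and 12 met no class. With wells thinned to 500 transcripts, 7 met no class, and 58 of 65 kept theirs, while in library 1 the same thinning left 49 epithelial-like wells and 45 in no class. The log2 ratio of list shares (library 2 over library 1) was 3.70 for macrophage, 3.97 for MHC class II and -1.63 for luminal and milk genes as a mean over wells. Without the largest well of library 1 it was 4.01 for macrophage, -0.92 for epithelial and -1.32 for luminal and milk genes, the last also moving to -1.40 without the largest well of library 2. The macrophage ratio without Apoe was 3.62. Some settings were chosen after the data were seen. These leave out the largest well of library 1, thin its wells to 500, leave out Apoe or place wells by the most genes. The alternatives to the comparison of the epithelial-like wells with library 1 were also chosen then.

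Genes higher in library 2 numbered 302 with a minimum of 10 transcripts and 48 with 50. Genes lower numbered 153 with 50, 66 with wells of library 1 thinned to 882 transcripts (57 of them shared with the 324, and beside 96 higher genes), and 55 when only epithelial-like wells were taken from library 2. For the epithelial-like wells against library 1, lower genes numbered 153 as a mean over wells, and the 7 wells above the smallest marker counts gave 153 higher and 23 lower genes. No paired analysis was possible because 1 library stands on each side and the results come from no test. A gene at 0 in library 2 was set to 3 transcripts, and this floor was not varied.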

Other observations

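Some abundant transcripts of library 2 were concentrated in a few wells or in the smallest ones, and are given as values only. Rhox8, a homeobox gene known from reproductive tissue, had 567 transcripts in the used wells (0.810%), of which 238 lay in stromal-like well 21, 186 in macrophage-like well 32 and 36 in epithelial-like well 84. It took 0.0726% of library 1, where 203 of 318 transcripts lay in 1 well, and 4.54% of all wells of library 3. Rn45s, the precursor of ribosomal RNA, took 0.650% of the used and 3.67% of the unused wells of library 2, against 0.250% of library 1. Malat1, a nuclear non-coding RNA, took 0.454%, 1.01% and 0.130% in that order. The neural crest transcription factor gene Sox10 had 96.8 of the 108 transcripts of the Schwann cell list, in 33 wells, at 22.4 per 10000 in stromal-like, 20.4 in contractile, 15.4 in epithelial-like and 3.02 in macrophage-like wells, and it was found in 78 of 95 wells of library 1 at 8.75 per 10000.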
